A study of Anguilla anguilla and Anguilla rostrata with 84 samples.

Results

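Of 992 contigs printed on an eel liver array, 732 were left after filters on spread and flatness. Of these, 42 deviated more under a mix of organochlorine pesticides (OCP) than under any of 8 other laboratory treatments, 18 upwards and 24 downwards. A contig is an assembled transcript sequence. The members were chosen by D, the mean of a treatment group minus the mean of the 9 treatment means, on the log2 scale. First the 60 contigs with the largest median spread within groups were dropped, then the 200 contigs that were flattest across treatments, which left 732. A contig was a member if its largest D, taken without sign, fell in the OCP group. Neither the control fish nor the wild fish entered D, although both entered the filter on spread. Since the OCP values chose the members, those values are described below, and counts of calls that involve the OCP fish stand beside their background with nothing read from them.

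Every value is a log2 ratio of the liver RNA of 1 fish (Cy3) over a pool of 30 wild European eels from Certes in France (Cy5), which all arrays share. The OCP group held 5 European eels, Anguilla anguilla, that received the mix in food at 13 ng/g dry weight. The other treatments were methylmercury by the food route, dosed at 5 ug/g dry weight, polychlorinated biphenyls (PCB) by the same route, dosed at 50 or 300 ng/g, cadmium (Cd) in water at 0.4 or 4 ug/L, a restricted diet of 2.5% of body weight, water of 18 per mil salinity, and water at 13 degrees C. Wild American eels came from the Canadian rivers St Jean and Sud-Ouest and lakes St Pierre and St François, and wild European eels from the French rivers Dordogne and Garonne and the Gironde estuary. Each of these groups held 5 fish, except 4 for PCB 300, Cd 4 and low temperature, and the laboratory control held 4 fish. The labels give neither the duration of the exposures nor the pesticides in the mix.

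Organochlorine pesticides are chlorinated, fat-soluble compounds that break down slowly and accumulate in fatty animals such as eels. The liver takes up such compounds and carries the enzymes that oxidise, conjugate and export them, and it also handles much of the lipid in which they are stored. The files do not pair the contigs with gene names, and 0 of 992 identifiers matched the gene table given, so the members are named by identifier, without function, and the liver label could not be checked against marker genes.

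The OCP arrays had 857 to 986 contigs above background in both channels, the control arrays 599 to 842, and the lowest array of all had 377, at PCB 50. Brightness, the mean log2 signal of both channels over all contigs, was 6.53 to 8.88 on the OCP arrays and 7.69 to 8.33 on the control arrays. The control array of fish 5 held the raw values of high salinity fish 4, and that of Cd 4 fish 1 those of Cd 0.4 fish 4, so both were left out. The array of low temperature fish 4 had correlations of -0.565 to -0.495 with the other 4 of its group, over all contigs, which leaves the direction of its ratios unsettled, and it was left out as well. With it kept, the rule gave 23 upward and 20 downward contigs. Of the 81 fish used, the arrays of Garonne fish 4 and 5 correlated least with the rest of their group, at 0.308 and 0.268. The OCP arrays correlated with the rest of theirs at 0.502 to 0.691.

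The 18 upward contigs had a D in OCP of 0.28 to 0.97 with a median of 0.40, which is 1.32-fold, and 5 reached 0.5 or more. Without OCP fish 1 that median was 0.30 and 1 of the 18 reached 0.5. The 24 downward contigs had a D of -0.70 to -0.26 with a median of -0.42, which is 1.33-fold lower, and 6 reached 0.5 or more in size. Without OCP fish 1 the downward median was -0.39 and 7 reached 0.5 in size. These are ratios from whole liver, in which fewer cells of a type and less RNA per cell cannot be told apart. Of the 63 contigs whose largest D fell in OCP, 8 were lost to the filter on spread and 13 to the filter on flat contigs. The split between the lists depended on the scaling, since median centring in place of loess gave 43 upward and 6 downward contigs by the same rule.

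OCP often led the next treatment by little. The gap between the size of D in OCP and in the next treatment had a median of 0.055 in the upward list and 0.057 in the downward list. It was 0.00078 for contig_23214, the closest inside the rule, and -0.0029 for contig_28977, the closest outside it. contig_19103 was the flattest member, at 0.26, and contig_39448, at 0.24, was the nearest contig led by OCP among those dropped as flat. contig_33258 had the largest spread of the members, a median SD within groups of 0.449, and the lowest among the contigs dropped for spread was 0.454.

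The downward list was more even across the OCP fish than the upward list. All 5 OCP fish lay below the mean of the 9 treatment means for 17 of the 24 downward contigs, and all 5 lay above it for 6 of the 18 upward contigs. In 5 upward contigs and 1 downward contig, 3 or fewer OCP fish lay on the side of D. The median over the upward list was 0.71, 0.07, 0.30, 0.15 and 0.33 in the 5 OCP fish. In the control fish that median was -0.04, 0.10, 0.03 and -0.07. OCP fish 1 stood highest, and OCP fish 2 lay below the highest control fish.

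Over the downward list the median was -0.37, -0.40, -0.35, -0.48 and -0.26 in the 5 OCP fish, and 0.04, -0.02, -0.08 and 0.24 in the 4 control fish. All OCP fish lay below all control fish in this median, a direction that the choice of members favours. OCP fish 1 was thus highest for the upward contigs without standing apart for the downward ones. The array of OCP fish 2, which had the smallest upward median, was the dimmest of the 5, at a brightness of 6.53, and its part in that value was not tested.

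**Figure D1:**
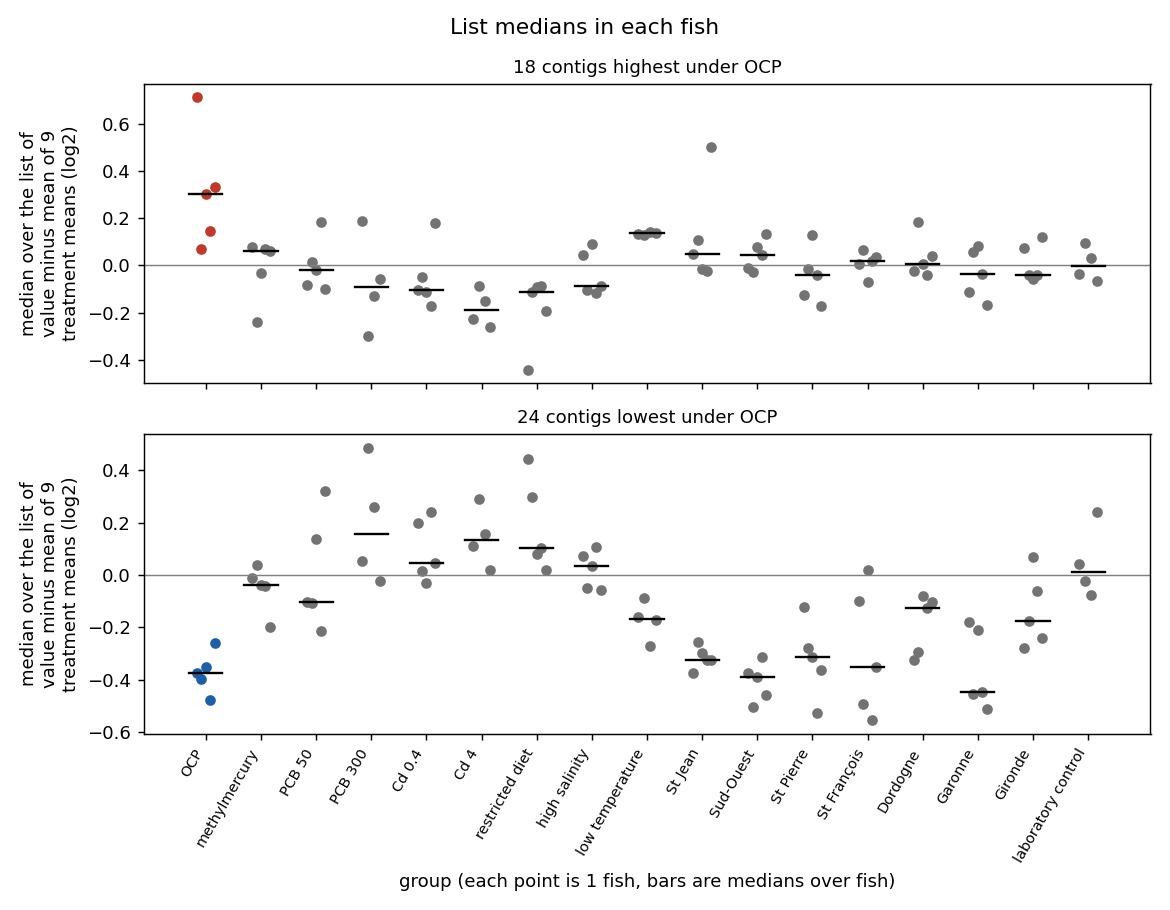
Each point is the median over the 18 upward contigs (top) or the 24 downward contigs (bottom) in 1 fish, as the value minus the mean of the 9 treatment means in log2 units; bars are medians over fish, and groups run from OCP through the other treatments and the wild sites to the control. The OCP fish spread from 0.07 to 0.71 in the upward list and from -0.48 to -0.26 in the downward list, and most wild fish lie below 0 in the downward list.

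OCP fish 1 was the highest OCP fish for 13 of the 18 upward contigs and the lowest for 5 of the 24 downward ones. For contig_8975 the OCP fish had 3.29, -0.24, 0.20, -0.09 and 0.12, and the control fish -0.47, 0.72, -0.16 and -0.57. D was 0.79 with OCP fish 1 and 0.20 without it. For contig_20094 the OCP fish had 3.16, 0.06, -0.01, -0.11 and 0.49, and D was 0.75 with OCP fish 1 and 0.20 without it. In both contigs the other OCP fish lay far below OCP fish 1. Over the 18 upward contigs D without OCP fish 1 ran from -0.02, in contig_4710, to 0.78. The next lowest were 0.09 in contig_24259 and 0.10 in contig_24357. For contig_4710 only 2 of 5 OCP fish lay on the side of D, which was 0.37 with OCP fish 1.

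Among upward contigs with all 5 OCP fish on the same side, contig_1345 and contig_12088 had the largest D. For contig_1345 the OCP fish had values of 1.06, -0.12, -0.25, -0.52 and -0.34, and the control fish -0.66, -0.45, -0.86 and -0.71. Its D of 0.54 rested largely on OCP fish 1, since without that fish D was 0.30. Of the rest, the fish at -0.52 lay within the range of the control fish and 3 lay above it, and the other 37 treated fish ran from -1.29 to 0.09 with a median of -0.69.

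For contig_12088 the OCP fish had 0.13, 0.02, 0.50, 0.64 and 0.52, and the control fish 0.31, -0.01, 0.19 and -0.43. The OCP fish at 0.50, 0.64 and 0.52 lay above every control fish and the others lay among them. The other treated fish ran from -1.01 to 0.54 with a median of -0.08. D was 0.40 here, and Cd 4 came next at 0.03 less in size, with the opposite sign. The contig was dim, at a mean log2 signal of 7.04, with a median of 7.90 over all contigs. It stayed a member in 3 of the 5 omissions of 1 OCP fish.

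The largest D of all, 0.97, belonged to contig_35073, for which 4 of 5 OCP fish lay on the same side. Its OCP values were 2.23, 0.16, 1.76, 1.40 and 1.41, and its control values 1.53, 1.43, 1.29 and 1.61. The mean was 1.39 ± 0.77 (SD, n = 5) in OCP fish and 1.46 ± 0.14 (SD, n = 4) in control fish, a difference of -0.07, and the control was the highest of the 17 groups. The other 37 treated fish averaged 0.31 ± 0.64 (SD), below both groups.

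Among downward contigs chosen in the same way, contig_19304 had the most negative D, -0.70. Its OCP values were 0.35, 0.16, -0.25, -0.85 and 0.70, and its control values 0.87, 1.05, 1.24 and 1.17. Every OCP fish lay below every control fish. The other treated fish ran from 0.13 to 1.46 with a median of 0.87, and only 2 of the 5 OCP fish lay below all of them.

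contig_5034 followed with a D of -0.61, from OCP values of -0.26, -0.56, -0.41, 0.11 and 0.19. The control values were 0.50, 0.51, 0.79 and 0.91, again above every OCP fish. The other treated fish, from -1.07 to 1.23 with a median of 0.63, took in the whole range of the OCP fish. Several of their low values came from PCB 50, whose fish had -0.93, -0.17, 0.39, -0.61 and 0.86.

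**Figure D2:**
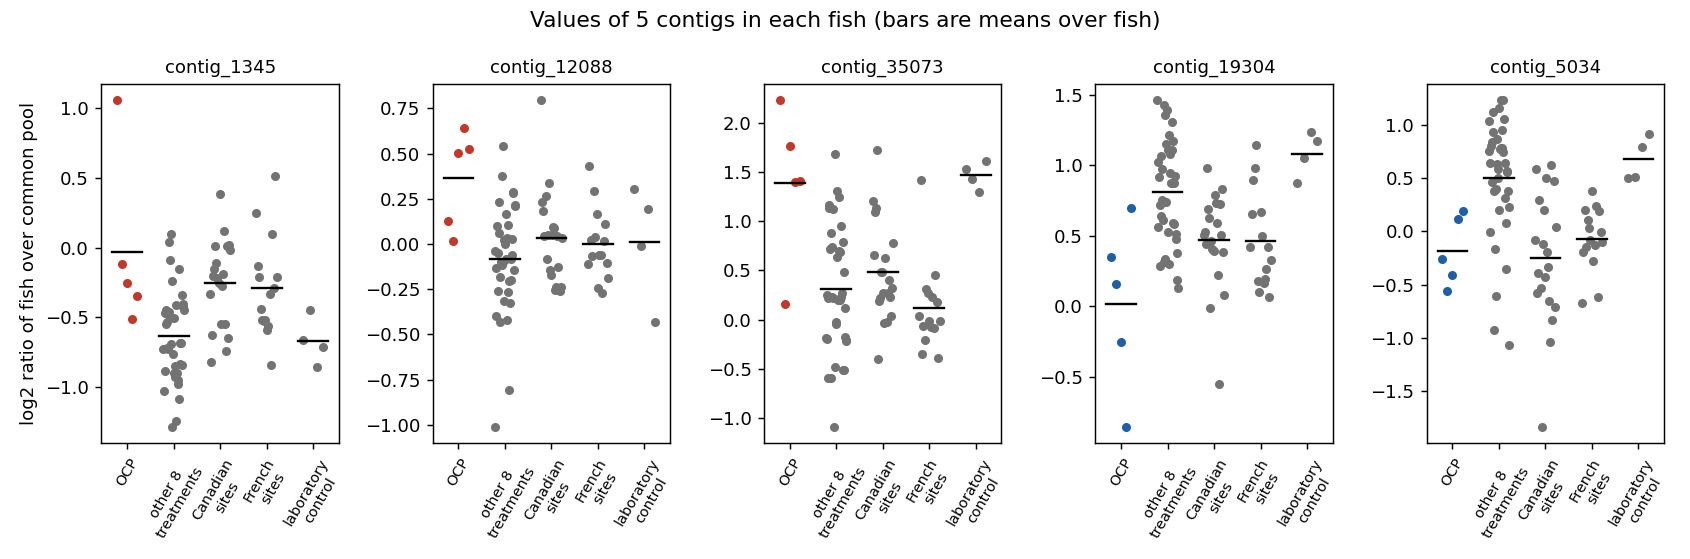
Log2 ratio of each fish over the common pool for 5 contigs, by OCP (coloured), the other 8 treatments, the Canadian sites, the French sites and the control; points are fish and bars are means over fish. contig_1345 shows 1 high OCP fish at 1.06, contig_35073 has control fish as high as OCP fish, and the OCP fish of contig_19304 and contig_5034 lie below all 4 control fish.

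Other treatments did not all lie on 1 side of the members. Low temperature lay on the same side as OCP for 13 of 18 upward and 18 of 24 downward contigs, with median D of 0.16 and -0.17. PCB 300 lay opposite to OCP for all 24 downward contigs, with a median D of 0.19, and Cd 4 lay opposite for 17 of 18 upward contigs, with a median D of -0.25. D sums to 0 over the 9 treatments, so a contig that is low in OCP has to be higher elsewhere on average, and these counts describe the choice as well as the fish. For the 2 PCB doses the downward list had median D of -0.004 at 50 ng/g and 0.19 at 300 ng/g.

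The second largest D belonged to Cd 0.4 in 5 and Cd 4 in 6 of the 18 upward contigs. In the downward list Cd 4, the restricted diet and low temperature held it in 6 contigs each and PCB 300 in 4. For Cd 4 and the restricted diet all of these downward contigs had the opposite sign to OCP, while for low temperature 1 of the 6 did.

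**Figure D3:**
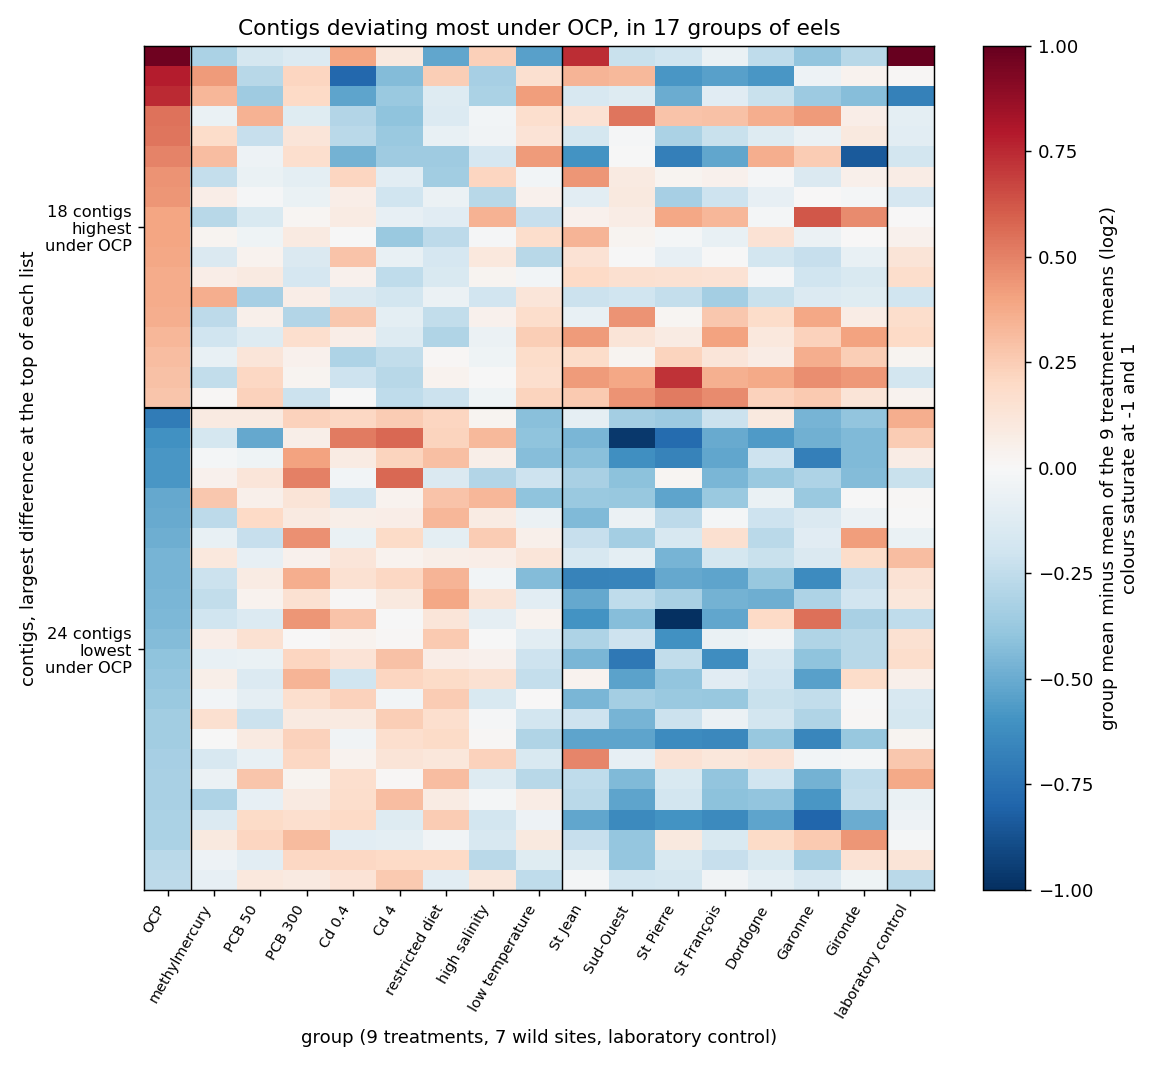
Group mean minus the mean of the 9 treatment means (log2, colour, saturating at -1 and 1) for the 42 members (rows, by size of D within each list) in 17 groups (columns, OCP first and control last). The first column is the extreme of the first 9 by the rule, which says nothing of the wild and control columns. Among these, the wild sites are mostly blue in the downward list, and the control is dark red for contig_35073 in the top row.

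The mean of the control fish was not used by D. It lay a median of 0.02 above the mean of the 9 treatment means over the upward list and 0.04 above it over the downward list, with -0.01 over all contigs. OCP lay on the outer side of the control for 17 of 18 upward and 23 of 24 downward contigs. contig_4710 and contig_23214 were not above background in the fish channel on any control array, so their control values are poorly measured. For contig_4710 the pool was above background on only 2 of these arrays. Of the other 16 upward contigs, contig_20094 and contig_24259 had a fish signal above background on 1 of 4 control arrays, contig_24357 on 2 and contig_33258 on 3. Over these 16 OCP minus control had a median of 0.38 (range -0.07 to 1.42, the latter in contig_20094). Over the 24 downward contigs it had a median of -0.47 (range -1.06 to 0.01). Since OCP fish stand on 1 side of that difference, nothing is read from it.

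In limma with Benjamini-Hochberg adjustment over all 992 contigs, OCP minus control passed for 0 of 18 upward and 2 of 24 downward contigs, contig_19304 and contig_3639. Of all contigs 2.12% passed in either direction, 1.41% higher and 0.706% lower. OCP minus the mean of the other 8 treatments passed for 2 downward contigs, contig_19304 and contig_39060, against 0.302% of all contigs in either direction and 0.202% lower. All 5 OCP fish lay above all 4 control fish for 1 upward contig, against 3.93% of all contigs, and below them for 8 downward contigs, against 4.03%. In 0 members did all 5 OCP fish lie beyond all other treated fish, as in 0% of all contigs. The rule used the OCP fish, so these counts stand beside their background as description. The first count was 0 without control fish 3 or 4 or OCP fish 4 and 1 without OCP fish 1, 2 or 5. The second was 0 without OCP fish 3, 1 without OCP fish 2 or 4, and 4 to 6 without PCB 50 fish 4, PCB 300 fish 1, Cd 4 fish 2, methylmercury fish 5 or OCP fish 5.

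The lists differed in how the 2 colour channels moved. On OCP arrays the fish signal lay 0.56 and the pool signal 0.57 below the mean of the 9 treatments in the median of all contigs, on the log2 scale, as these arrays were dimmer. For upward contigs the median difference was -0.04 in the fish channel and -0.61 in the pool channel. For downward contigs it was -1.25 in the fish channel and -0.77 in the pool channel. In both lists the fish channel departed more from the median of all contigs than the pool channel. Both channels were rebuilt from the normalized ratio and the mean signal. The rule chose the members by that ratio on these arrays, so nothing is read from the departure.

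Downward contigs were brighter, at a median mean log2 signal of 9.23, with 8.14 for upward contigs and 7.90 for all contigs. The fish signal lay above background on all OCP arrays for 17 of 18 upward and 24 of 24 downward contigs, with 92.9% of all contigs. The pool signal did so for 15 of 18 and 24 of 24, with 86.7% of all contigs. contig_23214, with all 5 OCP fish on the same side, was above background in each channel on only 3 OCP arrays. On all control arrays the fish signal lay above background for 12 of 18 and 23 of 24, with 55.8% of all contigs. The SD of the 3 spots of a contig, as a median over OCP arrays, was 0.12 in the upward list, 0.14 in the downward list and 0.13 over all contigs.

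Wild fish offer comparisons in which neither side had been used by D. French wild eels were lower than the laboratory control for 7 downward contigs and higher for 0, in limma with the mean of the 3 site means and adjustment over all contigs. That is 29.2% of the list, and 8.67% of all contigs were lower. All contigs include the 60 and the 200 dropped by the filters, and downward contigs were brighter, so these shares compare unlike sets. The part of either in these shares was not tested. The median difference was -0.29 over the downward list, with 18 of 24 negative, and 0.02 over all contigs. The 7 differences ran from -0.75 to -0.45 with adjusted p of 0.000317 to 0.0311 in limma. All 15 French fish lay below all 4 control fish in 2 of the 24 downward contigs, both among the 7, and in 1.21% of all contigs. In 0 members did all French fish lie above all control fish, against 1.81% of all contigs.

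The count rested on 2 control fish. Without control fish 4, limma passed 1 downward contig and 8.47% of all contigs in either direction, and without control fish 3 it passed 3 and 11.4%, with 21.2% when both were kept. The median of the downward list was -0.26 without control fish 4. Scaling between arrays left 1 downward contig past the threshold, with 10.2% of all contigs, at a list median of -0.23. Wild or laboratory origin and site cannot be told apart in this comparison.

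Of the 7, contig_5034 had the largest difference, at -0.75 (SE 0.26, adjusted p = 0.0294 in limma). The 15 French fish ran from -0.67 to 0.38 with a median of -0.08, and the control fish from 0.50 to 0.91. No French fish reached the lowest control fish. This call was lost without control fish 3 (-0.72, adjusted p = 0.101) or control fish 4 (-0.67, adjusted p = 0.13), without background subtraction (adjusted p = 0.0702) and after scaling between arrays (adjusted p = 0.193), all in limma.

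For the same 7 contigs OCP also lay below the control, by 0.37 to 1.06 in size. The 2 comparisons share the control fish, so these values are not independent of those of the wild fish. The rule also chose these contigs for a low OCP mean, and OCP lay below the control for 23 of the 24 downward contigs. OCP lay below the French mean for 21 of the 24, which that choice favours, so nothing is read from these OCP counts. The control lay above the French mean for 18 of the 24 downward contigs, and in 47.5% of all contigs.

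In the upward list French wild eels differed from the control at 2 contigs, in opposite directions, against 21.2% of all contigs in either direction. contig_35073 was lower by 1.35 on the log2 scale (difference -1.35, SE 0.29, adjusted p = 0.000395 in limma), the contig for which OCP and control were both high. The 15 French fish ran from -0.39 to 1.42 with a median of -0.01, and the control fish from 1.29 to 1.61. Only Dordogne fish 2, at 1.42, reached the control range.

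contig_29369 was higher by 0.61 (SE 0.21, adjusted p = 0.0277 in limma). French fish ran from -0.56 to 0.58 with a median of -0.16, and control fish from -0.93 to -0.49, so the groups overlapped slightly. The call was lost without control fish 2, 3 or 4, at differences of 0.54 to 0.62 and adjusted p of 0.0664 to 0.122 in limma. It was also lost after median centring (0.57, adjusted p = 0.129), without background subtraction (0.23, adjusted p = 0.239) and after scaling between arrays (0.49, adjusted p = 0.136). The median over the upward list was 0.06, with 12 of 18 positive, against 521 of all 992 contigs.

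**Figure D4:**
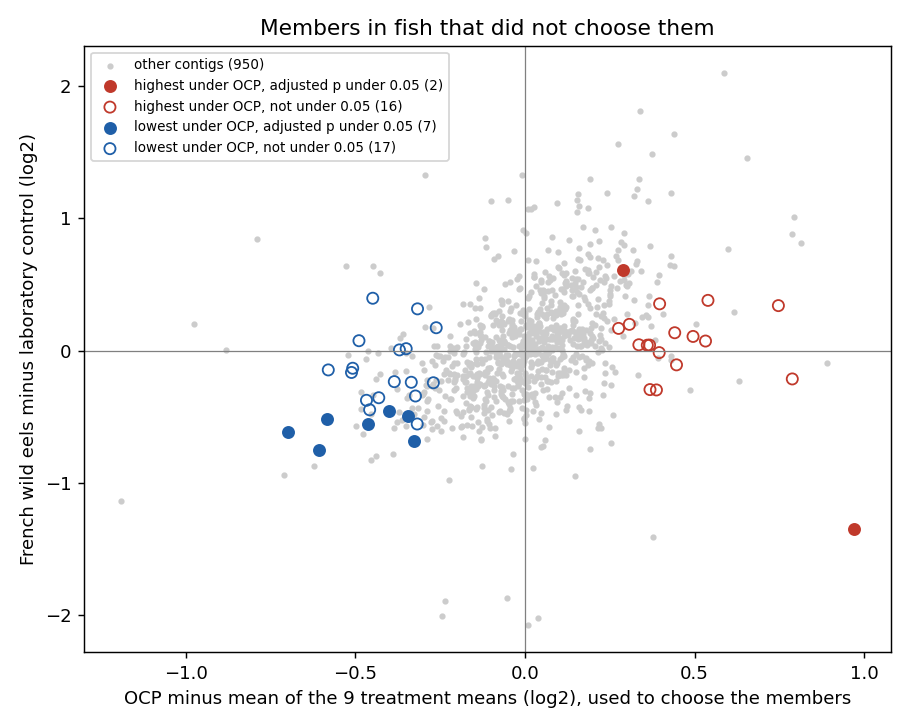
French wild eels minus laboratory control (log2, vertical) against D in OCP (log2, horizontal), 1 point per contig; filled points are members with an adjusted p under 0.05 in the vertical comparison, open points are other members and grey points are the other 950 contigs. The 7 filled downward contigs lie between -0.75 and -0.45, and contig_35073 stands alone at the lower right, at -1.35.

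Wild fish of every site had a median below 0 over the downward list, relative to the mean of the 9 treatments. The median over fish was -0.45 at Garonne, -0.39 at Sud-Ouest, -0.35 at St François, -0.32 at St Jean and -0.31 at St Pierre. It was -0.17 at Gironde and -0.13 at Dordogne, against 0.01 in the control. As plain ratios over the wild pool, the control means of the downward contigs had a median of 0.61, with -0.01 over all contigs. The site means of these contigs had medians from 0.06 at Sud-Ouest to 0.34 at Gironde. Single fish of different sites overlapped widely. For the upward list the site medians ran from -0.04 to 0.05, and 1 St Jean fish stood at 0.50.

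Among the 3 French sites, 0 members passed limma's F test, against 0.302% of all contigs. At an unadjusted p under 0.05 were 5 members, or 11.9%, with 12.3% of all contigs. Without Gironde fish 5 the count was 1. Among the 4 Canadian sites 1 member passed, contig_35073 (adjusted p = 0.0313 in limma), against 2.92% of all contigs. The St Jean fish had 1.2, 0.65, 1.10, 1.14 and 1.72. The fish of Sud-Ouest, St Pierre and St François ran from -0.40 to 0.78 between them, so that only the St Jean fish at 0.65 fell within their range.

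That call depended on St Jean. It was lost in limma without any 1 of St Jean fish 1, 3, 4 and 5 (adjusted p of 0.0642 to 0.159). It was also lost after median centring (adjusted p = 0.129) and in the authors' processed values (adjusted p = 0.144).

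American eels of Canada were lower than European eels of France for 2 downward contigs and higher for 0, against 3.53% of all contigs in either direction and 2.12% lower. Species, country and site cannot be told apart in this contrast, and the part of sequence differences between the species in hybridisation was not tested. Over the downward list 19 of 24 differences were negative, against 525 of all 992 contigs. The median difference there was -0.10, but it was 0.13 after median centring in place of loess. Over the upward list it was 0.03, and it was -0.01 over all contigs. The count of 2 was 4 without Dordogne fish 2.

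contig_16852 was the larger of the 2, at -0.78 (SE 0.147, adjusted p = 0.00124 in limma). American eels ran from -2.48 to -0.20 with a median of -1.14, and European eels from -1.08 to 0.26 with a median of -0.20. Within France the Gironde fish ran from -1.08 to -0.20 and the Garonne fish had 0.16, 0.14, -0.05, 0.26 and 0.16. The Gironde and Dordogne fish overlapped the American eels, while every Garonne fish lay above them. The Dordogne fish also overlapped those of both other French sites, and limma's F test among the French sites did not pass (adjusted p = 0.225). Without background subtraction the difference was -0.28 and the call was lost (adjusted p = 0.0737).

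contig_36077 was lower by 0.47 in size (difference -0.47, SE 0.125, adjusted p = 0.0325 in limma). American eels ran from -1.39 to 0.60 with a median of -0.36 and European eels from -0.20 to 1.13 with a median of 0.03, with wide overlap. Its call was lost under 4 of 6 alternatives and without any 1 of Dordogne fish 1, Gironde fish 3 or 4 or Garonne fish 4. After median centring its difference was -0.07.

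Membership itself moved with the processing. In the authors' processed values D had the same sign for 16 of 18 upward contigs, the other 2 having no value, and for 24 of 24 downward contigs, but OCP was the largest D for only 2 upward and 12 downward contigs. contig_19304, contig_39060 and contig_7952, all downward, stayed members under all 7 alternatives of processing, and 0 upward contigs did. Without each OCP fish in turn, 4 upward and 10 downward contigs stayed members throughout. Without OCP fish 1, 9 of the 18 upward contigs stayed members.

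**Figure D5:**
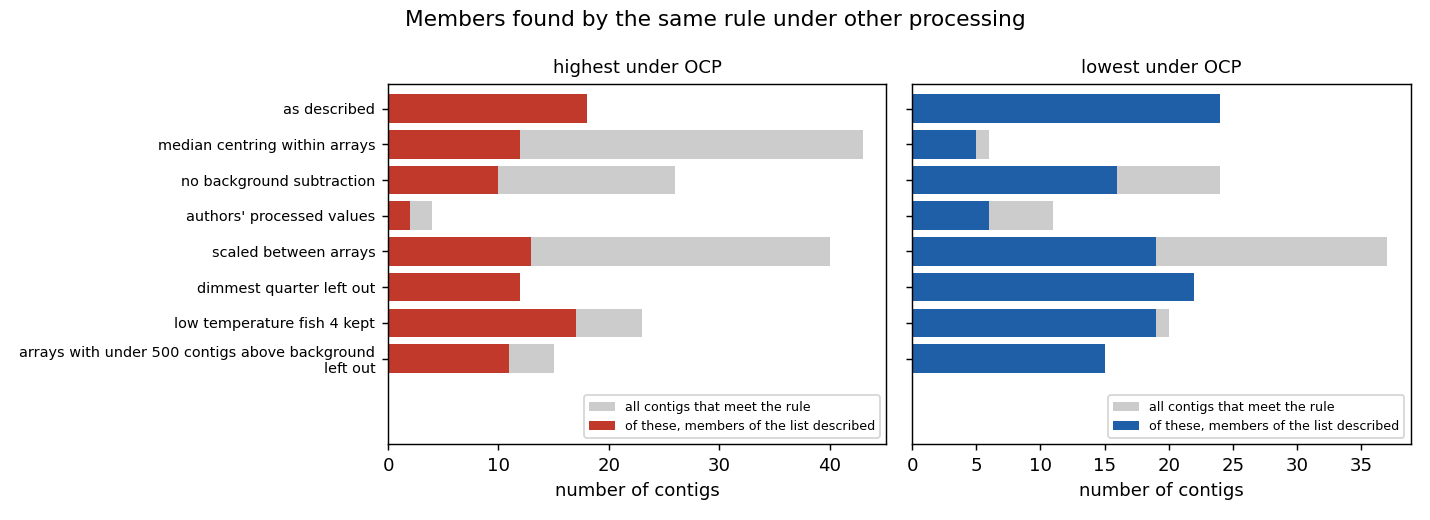
Number of contigs that meet the rule (horizontal) under each processing (rows), upward left and downward right; grey bars count all contigs and the coloured part counts those that are members of the lists described. The upward list ranges from 4 to 43 contigs and the downward list from 6 to 37.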

How the data were processed

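The authors deposited spot intensities of both channels with local backgrounds, neither subtracted nor normalized, per the file headers. Fish RNA was labelled with Cy3 and the pool with Cy5, per the labels' protocols. They also deposited log2 ratios of fish over pool per contig, which served as an alternative. The scanner is not named in the files or labels given.

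Here each channel had its background removed by normexp (offset 50), ratios were normalized by within-array loess and then averaged over 3 spots in limma 3.58.1 under R 4.3.3. A contig counted as above background where its mean background-subtracted signal was above 0. Restricted diet fish 2 and 3 have exchanged columns in the files, within 1 group. Group means were fitted (lmFit, eBayes) to 992 contigs over 46 laboratory fish, 35 wild fish or all 81, with Benjamini-Hochberg adjustment and a threshold of 0.05. The fits and the rule were tested on simulated data. The rule was checked only on planted shifts larger than the D of any member, so its behaviour at the sizes found here was not tested. The design text describes the fish as individuals, and the number of arrays limits the precision.

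The members, lists and tests were chosen with earlier results of these data known. Contigs were named by a rule: per list the 2 of largest D with all OCP fish on the same side, per wild test the 2 largest calls in each direction, and the contigs at each threshold. contig_35073 in the OCP description, contig_8975, contig_20094, contig_24259, contig_24357, contig_3639, contig_39060, contig_7952 and contig_4710 were singled out after their values were seen. Lists of liver, xenobiotic, oestrogen, lipid, stress and energy genes were not run, since no contig has a gene name.

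Alternatives were the authors' processed values, median centring, scaling between arrays, raw signals without background subtraction, leaving out contigs below the 0.25 quantile of mean signal, fitting only the groups compared, keeping low temperature fish 4, and omitting each fish. Omission of the 3 arrays on which fewer than 500 contigs rose above background and brightness as a covariate were chosen after seeing the data.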

Additional observations from a re-analysis of the deposited data

Results flagged for a closer look

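Among the sets of fish tested, OCP fish 1 stood apart from the other 4 OCP fish in 3 upward contigs. For contig_1345 it had 1.06, with the others at -0.52 to -0.12, for contig_8975 it had 3.29, with the others at -0.24 to 0.20, and for contig_20094 it had 3.16, with the others at -0.11 to 0.49. Its gap to the nearest of them was 0.748, 0.875 and 0.817 of the range of the group, in that order, which is above Dixon's 95% critical value for 5 fish. In all 28 sets of fish were tested in this way and 3 stood out. These sets took in only some of the members. Outside the 3 flagged contigs, OCP fish 1 had 2.62 in contig_24259, 1.96 in contig_24357 and 2.30 in contig_4710. The other OCP fish there had 0.10 to 0.26, -0.10 to 0.28 and -0.09 to 0.40, in that order. The rule chose contigs by their OCP mean, which 1 outlying OCP fish can make extreme. contig_8975 and contig_20094 were also singled out after their values were seen. The count of 3 is therefore not one to set against chance.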

How the results depend on the processing

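The upward list held 18 contigs as described, 43 after median centring (12 of the 18 among them), 4 in the authors' processed values (2) and 40 after scaling between arrays (13). The downward list held 24, and 6 (5 shared), 11 (6) and 37 (19) under the same settings, and 15 (15) without the 3 arrays under 500 contigs above background. Without each treated fish in turn the upward list held 14 to 24 contigs and the downward list 19 to 31. Counts of members past the threshold follow, with the share of all contigs past it under the same setting in brackets. OCP minus control had 2 (2.12%), but 0 after median centring (0%), after scaling (0.101%) and when only these groups were fitted (0.101%), 6 in the authors' values (7.96%), 4 without the 3 arrays (2.72%) and 0 to 3 without 1 fish. In limma, median centring called 0 of all contigs there, with 130 at an unadjusted p under 0.05. OCP minus the other 8 treatments, the contrast of the rule, had 2 (0.302%), but 5 after median centring (1.31%), 11 without background subtraction (2.32%), 0 in the authors' values (0.133%), 14 after scaling (2.72%), 5 without contigs below the 0.25 quantile of signal (0.806%), 7 with brightness as a covariate (1.11%) and 0 to 6 without 1 fish. Nothing is read from either, since the OCP fish chose the members. Among French sites the count of 0 (0.302%) became 1 after median centring (0.202%), 3 when only these sites were fitted (1.71%) and 0 to 1 without 1 fish. Among Canadian sites the count of 1 (2.92%) became 0 after median centring (1.51%) and in the authors' values (1.61%), 2 without background subtraction (2.92%) and 0 to 1 without 1 fish. For American minus European eels the count of 2 (3.53%) became 0 without background subtraction (2.12%), 1 in the authors' values (2.32%), 1 after scaling (3.93%) and 1 to 4 without 1 fish. For French wild eels minus control the count of 9 (21.2%) became 4 without background subtraction (11.1%), 14 in the authors' values (32.3%), 2 after scaling (10.2%) and 2 to 9 without 1 fish. The cause of these shifts was not tested. No paired analysis was possible because a replicate number serves only as a name for a fish. Signal over background limits comparisons with the control. There 12 of 18 upward contigs had a fish signal above background on all 4 arrays, with 55.8% of all contigs.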
